A study of Arabidopsis thaliana with 12 samples.

Results

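The difference between 2 departures from darkness was measured gene by gene in Arabidopsis thaliana seedlings: the response of wild type to light, and the effect of losing the PIF transcription factors in the dark. For each gene the log2 fold of light-treated over dark wild type was taken, and the log2 fold of dark pifq over dark wild type was subtracted from it. A gene was a member when it had 1 entry in each of the 2 deposited tables, FPKM above 0 in all 4 columns, at least 1 FPKM in one of them, and dark wild type values within 1.5-fold of each other after the tables had been brought to one scale. Of 31916 genes named in the 3 deposited tables, 28797 had 1 entry in both tables, and 14712 of these were members.

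Seeds of all groups were kept at 4 °C for 3 days, given light for 12 h and then grown in darkness for 4 days. The wild type is labelled Col. It was sampled in darkness (Col_D) and after 6 h of white light (Col_DL6h), and the mutant pifq was sampled in darkness (pifq_D), with 3 libraries of whole seedlings in each group. The name pifq stands for a quadruple mutant of PIF1, PIF3, PIF4 and PIF5, and its alleles are not given in the labels. The mutation was present throughout growth while the light lasted 6 h, so the length of a condition and its kind cannot be told apart. A further group, dark det1-1, a mutant of the repressor of light-type development DET1, was used for side-by-side values only. FPKM, the unit of expression, counts fragments relative to transcript length and to the number mapped. The authors deposited 1 value per gene and group. No spread between libraries, no test and no depth can therefore be given, and the error of a low value is unknown.

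The PIF proteins, a group of basic helix-loop-helix transcription factors, accumulate in darkness. They bind DNA at G-box elements and promote elongation growth while holding back greening. Phytochromes activated by light bind them and lead to their breakdown. Light acts on seedlings along other routes as well: cryptochromes, the UV-B receptor UVR8 and the loss of COP1 activity in light let the bZIP factor HY5 accumulate, and HY5 promotes pigment and photoprotection genes. A dark-grown pifq seedling looks partly like a light-grown one, and the difference described here sets apart genes that responded to light but not to PIF loss, and the reverse.

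The targeted genes were read first. PIF3 went from 30.2 to 0.802 FPKM in pifq and from 30.3 to 30.7 FPKM in light. PIF5, listed as PIL6, went from 9.44 to 1.39 FPKM in pifq and from 9.67 to 12.01 FPKM in light. PIF1, listed as PIL5, went from 19.2 to 23.7 FPKM in pifq, and PIF4 from 20.5 to 20.9 FPKM. PIF4 was not a member, because the dark wild type of the light table held 11.2 FPKM. The RNA of PIF3 and PIF5 was thus low in the library group labelled pifq, and that of PIF1 and PIF4 was near the wild type level. FPKM over a whole gene does not show a mutation that leaves its RNA in place. PIF6, listed as PIL2 and not among the mutated genes, went from 8.69 to 2.21 FPKM in pifq and from 9.09 to 9.79 FPKM in light.

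Dark wild type was the same set of libraries in both tables, so both folds share it. In the difference it nearly cancels, because the scaled dark values of a member differed by a median of 0.246%. The values just inside and outside the limits were as follows. APT3, with 26.8 and 17.39 FPKM in dark wild type, was kept, and NdhU, with 2.75 and 1.78 FPKM, was left out. AT5G07310 reached 1.00041 FPKM in light and was kept, and AT3G08636, with at most 0.99992 FPKM, was left out. Of the genes with 1 entry in both tables, 8682 were at 0 in a column, 3625 stayed under 1 FPKM and 1778 had dark values more than 1.5-fold apart. Entries with no gene name held 7.25% of the FPKM sum in light and 1.05% in pifq, against 10.8% and 10.5% in the dark wild type of the same tables.

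The following genes named here overlap another annotated gene, and since the handling of strand is not given in the sources used here, their values may hold fragments of the neighbour: PIL5, PIL2, BBX32, STH, TT4, GSTF12, KAT5, SOUL-1, AT5G64170, HSP17.4, DREB1A, PORB, HEME1, CH1, PSAG, FD1, GAPA, LHCB6, SNRK2.5, XTH15, ASN1, DIN10, STP1, DELTA-TIP, MIR822, RAB18, OLEO2, KCS2, CASP1, RWP1, BBX14, TCP3, CYCD3;1, MIPS3 and AT3G05730.

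In what follows, higher and lower mean a change of at least 2-fold, a limit of size used in place of a test. Among members, 12.1% were higher and 10.8% lower in light, and 12.7% were higher and 14.1% lower in pifq. The difference was at least 1 (2-fold more in the light fold) for 2048 members, or 13.9%, and at most -1 for 1844, or 12.5%. It was at least 2 for 755 members, 5.13%, and at most -2 for 452, 3.07%. The median difference over members was -0.04. Genes were sorted into 6 classes. A light-led gene changed at least 2-fold in light and by less than 1.41-fold either way in pifq, with a difference of at least 1 in size, and a pifq-led gene did the reverse. There were 287 light-led higher genes (1.95%), 332 light-led lower genes (2.26%), 379 pifq-led higher genes (2.58%) and 546 pifq-led lower genes (3.71%). A further 223 genes (1.52%) were higher in light and lower in pifq, and 70 (0.476%) were lower in light and higher in pifq.

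**Figure D1:**
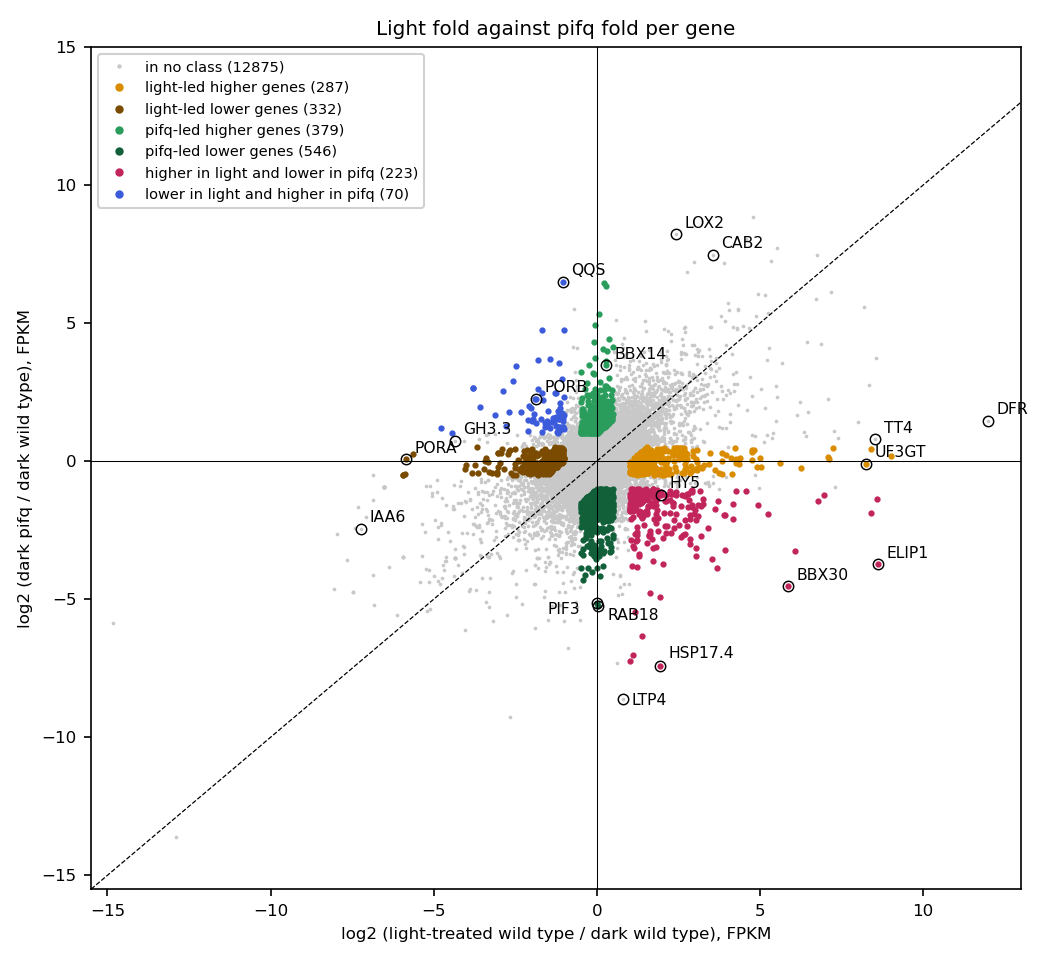
Log2 fold of wild type after 6 h of light over dark wild type (x axis) against log2 fold of dark pifq over dark wild type (y axis), 1 point for each of the 14712 members, with the 6 classes in colour and their numbers in the legend. The dashed line marks equal folds. ELIP1 lies at 8.62 and -3.73, and QQS at -1.03 and 6.50.

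The largest difference belonged to a gene that rose in light and fell in pifq. ELIP1 (AT3G22840), an early light-inducible chlorophyll-binding protein of photoprotection, went from 3.48 to 1373 FPKM in light and from 3.39 to 0.256 FPKM in pifq. Its difference of 12.35 was the largest of all members. ELIP2 went from 5.45 to 854 FPKM in light and from 5.30 to 2.74 FPKM in pifq. Both rose in light, and ELIP1 fell in pifq, while ELIP2 stayed within 2-fold of its dark level there. In dark det1-1 ELIP1 went from 3.23 to 89.1 FPKM and ELIP2 from 5.05 to 123 FPKM. The photoprotection and oxidative response list, which holds both, was mixed. Of its 16 members 6 had a difference of at least 1 and 3 of at most -1 (median 0.59).

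HY5 and several B-box factors were also higher in light. HY5 (AT5G11260) went from 29.5 to 115 FPKM in light and from 28.8 to 12.4 FPKM in pifq, a log2 fold of 1.96 against -1.21. BBX30 (AT4G15248), a short B-box protein, went from 0.821 to 48.1 FPKM in light and from 0.801 to 0.0349 FPKM in pifq, and its difference was 10.39. BBX31 went from 0.942 to 18.3 FPKM and from 0.918 to 0.437 FPKM. LZF1, also called BBX22 and a partner of HY5, was light-led, with from 12.8 to 156 FPKM in light and from 12.5 to 10.09 FPKM in pifq. BBX18 went from 2.37 to 26.3 FPKM in light and from 2.297 to 2.81 FPKM in pifq, and BBX32 from 0.137 to 11.6 FPKM and from 0.133 to 0.254 FPKM. In the list of HY5 and B-box factors, 7 of 11 members were higher in light and 1 in pifq, while 1 was lower in light and 5 in pifq, and 8 had a difference of at least 1. STH went from 0.408 to 58.6 FPKM in light and from 0.378 to 26.1 FPKM in pifq and thus rose in both. BBX21 went from 232 to 104 FPKM in light and from 225 to 122 FPKM in pifq. The repressors of light signalling COP1 and SPA1 were higher in light as well: COP1 went from 14.6 to 31.9 FPKM in light and from 14.2 to 15.3 FPKM in pifq, and SPA1 from 5.19 to 40.8 FPKM and from 5.02 to 11.5 FPKM. RUP1 and RUP2, which turn off UVR8, went from 10.8 to 69.4 FPKM and from 2.47 to 70.8 FPKM in light, against from 10.5 to 8.60 FPKM and from 2.41 to 4.58 FPKM in pifq.

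The flavonoid pathway showed the widest gap of any list. All 9 member enzymes were higher in light, 4 were higher and 1 was lower in pifq, and all 9 had a difference of at least 1, with a median of 6.58 against -0.04 over all members. TT4 (AT5G13930), chalcone synthase and the entry to the pathway, went from 4.88 to 1809 FPKM in light and from 4.76 to 8.26 FPKM in pifq. TT5, chalcone isomerase, went from 7.80 to 329.9 FPKM and from 7.59 to 15.46 FPKM. TT7, flavonoid 3'-hydroxylase, went from 2.83 to 44.0 FPKM and from 2.75 to 1.84 FPKM. All 3 early steps were higher after light than in dark wild type or pifq. DFR, the first step towards anthocyanin, went from 0.0111 to 45.0 FPKM in light and from 0.0107 to 0.0296 FPKM in pifq. UF3GT (AT5G54060), an anthocyanin glycosyltransferase, went from 0.0651 to 19.9 FPKM and from 0.0634 to 0.0597 FPKM, and AT5MAT, an anthocyanin malonyltransferase, from 0.0673 to 17.3 FPKM and from 0.0654 to 0.175 FPKM. GSTF12, a glutathione transferase needed for anthocyanin in the vacuole, went from 0.155 to 52.4 FPKM and from 0.150 to 0.0406 FPKM. These 4 late genes were near 0 in dark wild type and pifq, so the size of their fold in light and their direction in pifq rest on values under 0.2 FPKM. They reached the minimum of 1 FPKM in light alone. Their place among the 9 enzymes higher in light, with a difference of at least 1, was therefore fixed by that minimum. UGT78D1, a flavonol rhamnosyltransferase, differed least, with from 2.60 to 37.1 FPKM in light and from 2.53 to 14.7 FPKM in pifq. F3H and FLS1 were not members. Their dark wild type values were 0.721 and 51.0 FPKM for F3H and 0.577 and 0.886 FPKM for FLS1 in the light and pifq tables.

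Most regulators of the pathway were also higher in light, while in pifq they moved in both directions. MYB12, an activator of flavonol genes, went from 0.369 to 40.1 FPKM in light and from 0.358 to 0.133 FPKM in pifq. PAP1, an activator of anthocyanin genes, went from 1.77 to 14.7 FPKM and from 1.71 to 0.159 FPKM. MYBL2, a repressor of anthocyanin genes, was pifq-led and lower, with from 44.8 to 38.1 FPKM in light and from 46.6 to 7.67 FPKM in pifq. Of 9 member regulators 7 were higher in light, 3 were higher and 3 lower in pifq, and the median difference was 2.37. Upstream, the phenylalanine ammonia-lyases PAL1 and PAL2 were light-led: PAL1 went from 129.9 to 444 FPKM in light and from 126 to 101 FPKM in pifq, and PAL2 from 50.8 to 171 FPKM and from 65.1 to 56.2 FPKM. 4CL3, a 4-coumarate-CoA ligase of flavonoid synthesis, went from 0.564 to 42.5 FPKM and from 0.546 to 2.43 FPKM. These were the 3 of 9 members of the general phenylpropanoid list that were higher in light. In that list 4 members had a difference of at least 1 and 1 of at most -1 (median 0.60). PAL3 went the other way, with a log2 fold of 0.71 in light and 2.67 in pifq. In dark det1-1 TT4 went from 4.53 to 411 FPKM, MYB12 from 0.342 to 7.48 FPKM and 4CL3 from 0.523 to 14.2 FPKM. PAP1 fell there from 1.64 to 0.382 FPKM, and MYBL2 rose from 41.5 to 164 FPKM. PAL1 went from 118 to 102 FPKM and PAL2 from 46.0 to 64.7 FPKM in that mutant.

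Further genes with large differences belonged to varied pathways, and the first 5 named were light-led. KAT5, a peroxisomal thiolase, went from 0.561 to 84.2 FPKM in light and from 0.548 to 0.771 FPKM in pifq. ABCI20, an ABC protein, went from 12.7 to 411 FPKM and from 12.4 to 10.6 FPKM, and SOUL-1, a heme-binding protein, from 15.2 to 407 FPKM and from 14.6 to 14.99 FPKM. UGT84A2, a glucosyltransferase that uses sinapate, went from 13.9 to 372 FPKM and from 13.5 to 16.8 FPKM. CYP707A2, which breaks down abscisic acid, went from 0.557 to 11.4 FPKM and from 0.538 to 0.497 FPKM. Outside that class, ATGA2OX1, which inactivates gibberellin, went from 0.105 to 17.7 FPKM in light and from 0.102 to 0.180 FPKM in pifq. SIGE, a sigma factor for plastid transcription induced by blue light, was higher in both and further in light, from 1.48 to 66.4 FPKM and from 1.44 to 3.93 FPKM. It was the only member of 10 in the plastid transcription list with a difference of at least 1: the list was higher in light and in pifq alike, with 8 of 10 members each and a median difference of 0.06. CRY3, a photolyase-like cryptochrome of the organelles, was likewise higher in both, from 1.34 to 36.01 FPKM and from 1.304 to 6.73 FPKM. AT3G52740, which has no described function in the annotation, went from 0.247 to 94.8 FPKM in light and from 0.240 to 0.0918 FPKM in pifq. UVR8 itself was 41.4 and 41.7 FPKM before and after light and 41.0 FPKM in pifq.

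The clock list was mixed, with a median difference of -0.18, 6 of 24 members at 1 or more and 4 at -1 or less. ELF4, an evening gene, went from 16.9 to 489 FPKM in light and from 16.5 to 11.5 FPKM in pifq. AT5G64170, named LNK1 in the list, went from 4.57 to 29.4 FPKM and from 4.47 to 0.722 FPKM. CDF1, which represses flowering genes, went from 1.42 to 8.63 FPKM and from 1.38 to 1.03 FPKM. On the other side, the morning gene LHY went from 14.2 to 6.89 FPKM in light and from 14.04 to 38.2 FPKM in pifq. The time of day at sampling is not given in the labels, so for clock genes time and light cannot be told apart.

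Many heat shock genes were higher in light, and some of them lower in pifq. HSP17.4 (AT3G46230), a small heat shock protein, went from 4.42 to 16.9 FPKM in light and from 3.42 to 0.0200 FPKM in pifq. HSP17.6A went from 3.20 to 26.3 FPKM and from 3.11 to 0.351 FPKM, and HSP70 from 34.5 to 309 FPKM and from 33.6 to 15.98 FPKM. Of 15 heat shock members 10 were higher in light, against 1 higher and 6 lower in pifq, and 10 had a difference of at least 1 (median 2.15). A wider set of 42 members annotated as heat shock or HSP20-like, chosen with the values known, was more mixed. In it 21 were higher and 3 lower in light, and 7 were higher and 10 lower in pifq. Its difference was at least 1 for 14 and at most -1 for 3 (median 0.65). KIN1, a cold- and abscisic acid-induced gene, went from 52.5 to 679.9 FPKM in light and from 50.99 to 3.46 FPKM in pifq, and DREB1A, a cold-response factor also called CBF3, from 0.415 to 6.32 FPKM and from 0.405 to 0.0437 FPKM. KIN1 and DREB1A were named with their values known. The value of HSP17.4 in pifq is close to 0, and its dark values differed 1.26-fold between the tables after scaling. Temperature and handling of the seedlings during the 6 h of light are not given in the labels.

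**Figure D2:**
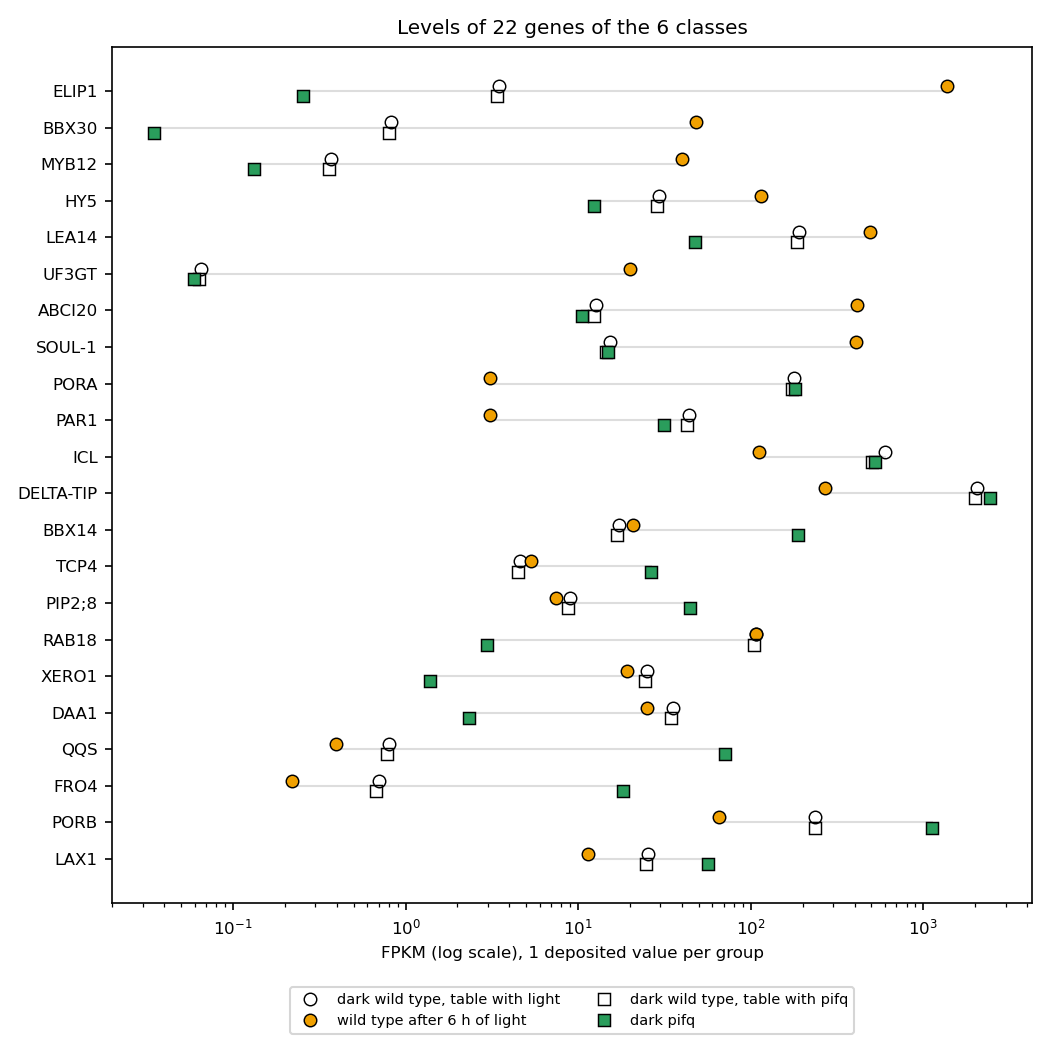
FPKM on a log axis of 22 genes of the 6 classes, with open symbols for dark wild type in each table, a filled circle for wild type after 6 h of light and a filled square for dark pifq, 1 deposited value each. The open symbols of a gene lie together. ELIP1 spans 0.256 to 1373 FPKM with dark wild type between, and PORA is low only in light, at 3.08 FPKM.

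The lowest difference among the light-led lower genes that were named belonged to PORA. PORA (AT5G54190), a light-dependent protochlorophyllide oxidoreductase of etiolated seedlings, went from 178 to 3.08 FPKM in light and from 173 to 181 FPKM in pifq. Its difference was -5.92. PORB, the second such enzyme, moved in opposite directions, from 237 to 65.5 FPKM in light and from 235 to 1129 FPKM in pifq. In dark det1-1 both were low, PORA going from 161 to 3.72 FPKM and PORB from 214 to 29.7 FPKM. PORA and PORB RNA thus separated light from PIF loss in 2 ways, with a loss in light set against no change above 1.05-fold for PORA and a 4.81-fold rise for PORB.

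Most other genes of chlorophyll synthesis were higher in pifq, and a part of them in light. HEMA1, which starts the pathway, went from 24.1 to 85.7 FPKM in light and from 23.4 to 263 FPKM in pifq. HEME1, uroporphyrinogen decarboxylase, went from 13.6 to 42.4 FPKM and from 13.2 to 132 FPKM, and CH1, chlorophyllide a oxygenase, from 8.29 to 35.9 FPKM and from 7.99 to 90.07 FPKM. GUN5, a subunit of magnesium chelatase, went from 21.5 to 172 FPKM and from 20.9 to 302 FPKM. Of 18 members, 9 were higher and 2 lower in light and 14 were higher in pifq, and the light fold was below the pifq fold for 17. The exception was PCB2, divinyl reductase, which went from 28.97 to 69.0 FPKM in light and from 28.1 to 44.7 FPKM in pifq. The median difference was -1.01. It moved to between -0.86 and -0.99 under 5 of the alternatives tried.

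Photosynthesis genes followed the same order. Of 26 nuclear photosystem and electron transport members, 23 were higher in light and 25 in pifq, and the light fold was below the pifq fold for 25. The median levels of the list were 105 FPKM in dark wild type, 431 FPKM after light and 1118 FPKM in pifq. PSAG, a subunit of photosystem I, went from 234 to 618 FPKM in light and from 227 to 2539 FPKM in pifq. PSAL went from 118 to 333 FPKM and from 115 to 1363 FPKM, and PSBO1, of the oxygen-evolving complex of photosystem II, from 329.8 to 624 FPKM and from 321 to 2515 FPKM. In each of these the mutant held several times more RNA than the light-treated wild type. FD1, a ferredoxin, was the exception, with from 398 to 1122 FPKM in light and from 387 to 484 FPKM in pifq. Of 12 Calvin cycle members all 12 had a lower fold in light, with a median difference of -0.89, and GAPA, a subunit of plastid glyceraldehyde 3-phosphate dehydrogenase, went from 225 to 346 FPKM and from 219 to 928 FPKM.

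Among 14 antenna genes 12 were higher in light and 13 in pifq, and the light fold was below the pifq fold for 12 (median difference -1.41). LHCB6 went from 62.7 to 303 FPKM in light and from 61.4 to 1265 FPKM in pifq, and LHCA3 from 192 to 534 FPKM and from 186 to 1649 FPKM. LHCB4.3 went the other way, from 11.5 to 21.9 FPKM and from 11.1 to 4.57 FPKM. CAB2 and CAB3 had the largest gaps, at -3.93 and -4.08, with from 44.7 to 7995 FPKM and from 44.5 to 5127 FPKM in pifq, but they share 30.3% and 24.0% of their 32-base stretches with other places in the genome. CAB1, their near-identical neighbour, is listed at 0 in pifq and at 1837 FPKM in the dark wild type beside it, so its fragments may stand under CAB2 and CAB3. The sum of CAB1, CAB2 and CAB3 went from 1980 to 3195 FPKM in light and from 1927 to 13122 FPKM in pifq, a difference of -2.08. LHB1B1, LHB1B2, RBCS1B, RBCS2B and RBCS3B are listed at 0 in pifq as well and were not members. GLK2, an activator of photosynthesis genes, went from 16.5 to 42.2 FPKM in light and from 16.2 to 81.5 FPKM in pifq, and CGA1, a GATA factor of greening, from 0.102 to 10.8 FPKM and from 0.0992 to 5.87 FPKM.

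**Figure D3:**
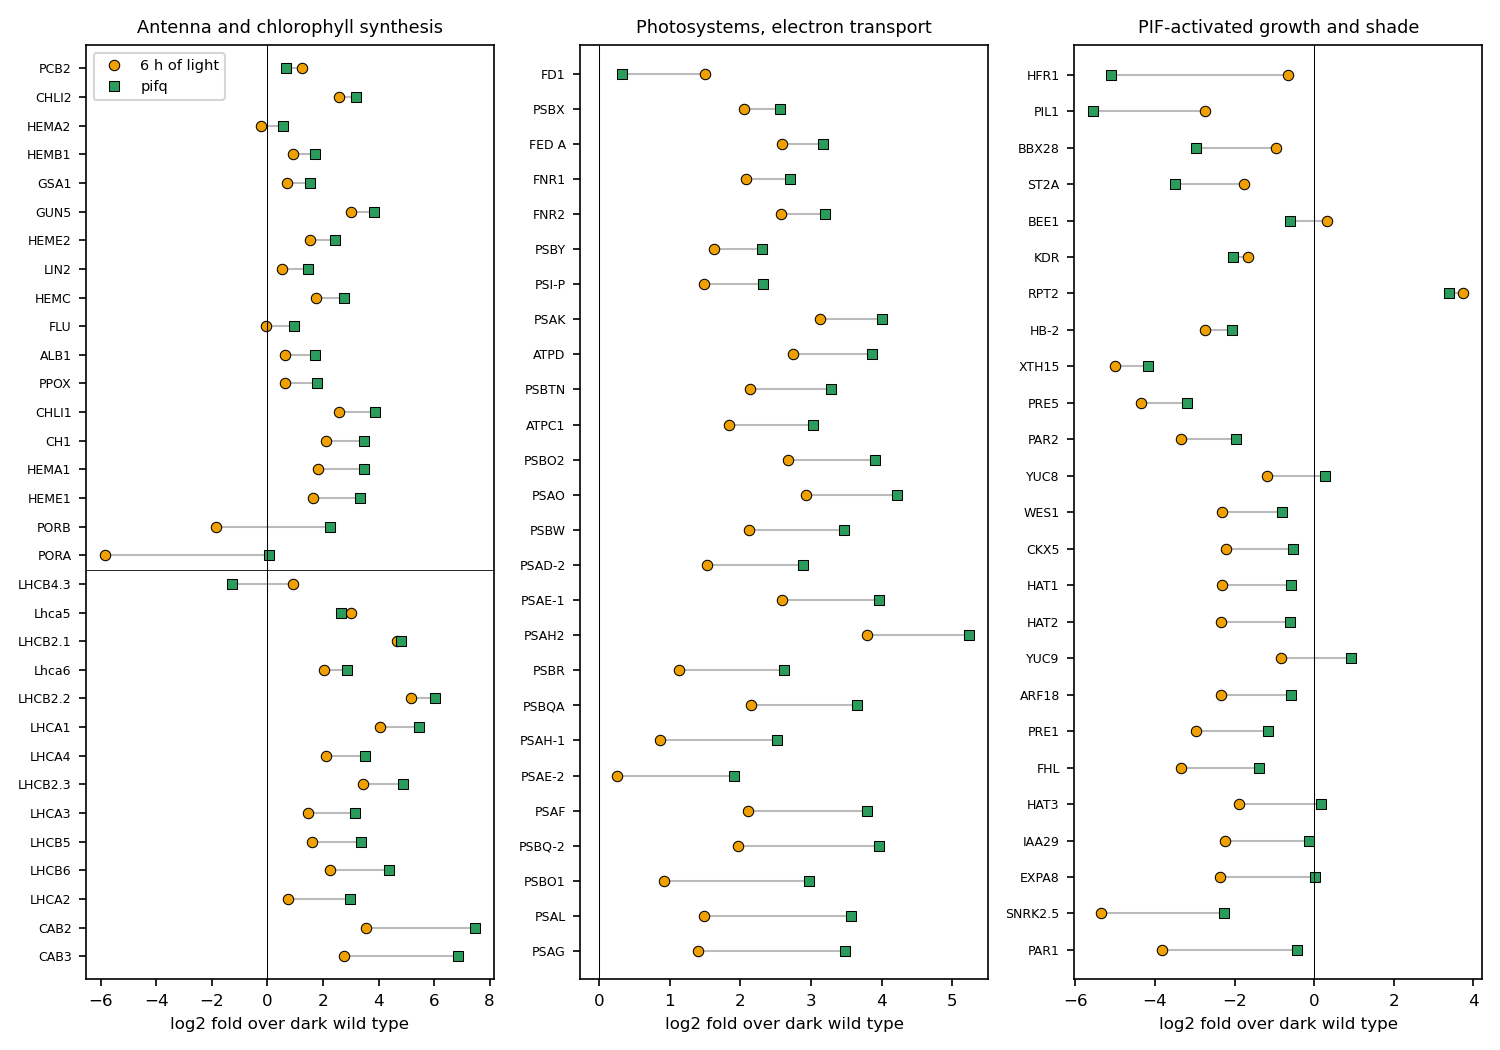
Log2 fold over dark wild type in light (circles) and in pifq (squares) for every member of 4 lists, 1 line per gene; in the left panel chlorophyll synthesis stands above the line and the antenna below it. Squares lie to the right of circles for 17 of 18, 12 of 14 and 25 of 26 members of the first 3 lists, and also for 18 of 25 PIF-activated genes.

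Of genes known to be activated by PIFs, most were lower in light and about as many were lower in pifq as were not. Of 25 members 20 were lower and 1 was higher in light, 12 were lower and 1 was higher in pifq, 16 had a difference of at most -1 and 4 of at least 1, and the median difference was -1.50. PAR1 (AT2G42870), a helix-loop-helix protein that limits the shade response, was light-led, with from 43.8 to 3.09 FPKM in light and from 42.6 to 31.5 FPKM in pifq. EXPA8, an expansin, went from 252 to 48.5 FPKM and from 244 to 246 FPKM, and HAT3, a homeobox factor of the shade response, from 15.4 to 4.18 FPKM and from 14.96 to 16.9 FPKM. These 3 genes stayed within 1.41-fold of their dark level in the mutant. SNRK2.5, a protein kinase, fell in both, from 63.9 to 1.55 FPKM and from 62.4 to 12.96 FPKM. A few behaved the other way. HFR1, which binds PIFs and blocks them, went from 91.2 to 58.1 FPKM in light and from 88.0 to 2.56 FPKM in pifq. PIL1 went from 25.01 to 3.70 FPKM and from 24.3 to 0.516 FPKM, and ST2A, a sulfotransferase, from 106 to 31.1 FPKM and from 103 to 9.03 FPKM. XTH15, which acts on cell wall xyloglucan, fell in both, from 1097 to 34.2 FPKM in light and from 1064 to 59.0 FPKM in pifq.

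Most auxin response genes were lower in light. Of 30 members of the Aux/IAA, SAUR and GH3 list 21 were lower in light and 13 in pifq, 19 had a difference of at most -1 and 0 of at least 1, and the median was -1.47. IAA6, an auxin-induced repressor, went from 46.4 to 0.311 FPKM in light and from 45.2 to 8.31 FPKM in pifq. GH3.3, which conjugates auxin, went from 9.003 to 0.438 FPKM and from 8.74 to 14.6 FPKM. AT4G38825, a SAUR-like gene that overlaps AT4G38820, went from 24.2 to 0.150 FPKM and from 23.4 to 7.37 FPKM. SAUR22 went from 48.1 to 1.65 FPKM and from 46.7 to 8.99 FPKM; SAUR19, SAUR20, SAUR24, SAUR63 and SAUR68 have stretches repeated elsewhere and are given in the count only. AXR3, another Aux/IAA repressor, went from 339.9 to 148 FPKM and from 331 to 83.3 FPKM, the lower level being in pifq. Among genes of auxin supply, YUC3, a synthesis enzyme, went from 4.74 to 1.04 FPKM in light and from 4.60 to 5.17 FPKM in pifq, and LAX1, an influx carrier, from 25.4 to 11.4 FPKM and from 24.7 to 56.3 FPKM. HLS1, needed for the apical hook, went from 10.99 to 0.887 FPKM and from 10.7 to 4.87 FPKM. GAI, a DELLA repressor of gibberellin responses, went from 31.5 to 7.91 FPKM and from 30.6 to 41.5 FPKM, and GH9B1, a cell wall glucanase, from 106 to 4.97 FPKM and from 103 to 33.7 FPKM. The gibberellin list, which holds GAI, was split. In it 4 of 20 members had a difference of at least 1 and 6 of at most -1 (median -0.43). GID1B, of the same list, went from 14.8 to 21.6 FPKM in light and from 14.4 to 8.13 FPKM in pifq. All 12 member tubulins had a lower fold in light than in pifq, with a median of -1.17, and TUB4 went from 433 to 261 FPKM and from 421 to 705 FPKM. Without tubulin genes that have repeated stretches the median was -0.89.

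Some genes of reserve use and of the dark-starved state were also lower in light. ICL, isocitrate lyase of the glyoxylate cycle, went from 597 to 112 FPKM in light and from 507 to 525 FPKM in pifq. PCK1, which makes phosphoenolpyruvate for sugar synthesis, went from 583 to 149 FPKM and from 593 to 919 FPKM, and MLS, malate synthase, from 43.7 to 11.8 FPKM and from 42.6 to 27.3 FPKM. These 3 were the seed oil members with a difference of at most -1, while none of the 16 was at 1 or more and the list median was -0.04. ASN1, an asparagine synthetase raised by darkness, fell in both and further in light: it went from 322 to 9.74 FPKM in light and from 313 to 141 FPKM in pifq. DIN10, a raffinose synthase-like gene, went from 216 to 46.4 FPKM and from 209 to 273 FPKM, and STP1, a monosaccharide transporter, from 243 to 26.2 FPKM and from 237 to 175 FPKM. DIN9 rose in light, from 3.65 to 11.0 FPKM, and went from 3.54 to 3.62 FPKM in pifq. Of 18 dark and sugar starvation members 11 were lower and 2 higher in light. Their difference was at least 1 for 1 and at most -1 for 5 (median -0.54). In the sugar transport and starch list, which holds STP1, these counts were 5 and 6 of 21. DELTA-TIP, a vacuolar aquaporin, went from 2049 to 268 FPKM in light and from 1990 to 2444 FPKM in pifq. HR4, a homolog of a resistance protein, went from 6.31 to 0.840 FPKM and from 6.24 to 8.42 FPKM, with 20.2% of its stretches repeated elsewhere. TRM25 went from 4.89 to 0.743 FPKM and from 4.73 to 5.63 FPKM, and the precursor RNA of the microRNA gene MIR822 from 37.9 to 4.85 FPKM and from 36.8 to 35.5 FPKM.

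The pifq-led lower genes were the largest class. RAB18 (AT5G66400), a dehydrin induced by abscisic acid and drought, went from 107 to 107 FPKM in light and from 105 to 2.96 FPKM in pifq. XERO1, another dehydrin, went from 25.1 to 19.3 FPKM in light and from 24.4 to 1.39 FPKM in pifq. LEA14, a late embryogenesis abundant protein, rose from 191 to 489 FPKM in light and fell from 186 to 47.5 FPKM in pifq. RAB18 and XERO1 were close to their dark level after light and at a small part of it in the mutant. RD20, a caleosin of the drought response, went from 21.6 to 16.2 FPKM and from 20.99 to 2.01 FPKM, and OLEO2, a seed oleosin, from 13.3 to 8.88 FPKM and from 13.003 to 2.65 FPKM. Of 16 members of the seed and late embryogenesis list 15 were lower in pifq, against 5 lower and 1 higher in light, and 13 had a difference of at least 1 (median 1.71). A wider set of 69 members annotated as dehydrin or late embryogenesis abundant, chosen with the values known, was more mixed. In it 7 were higher and 35 lower in pifq, and 10 were higher and 11 lower in light. Its difference was at least 1 for 32 and at most -1 for 8 (median 0.77). The seed storage markers were low throughout: the 4 with values summed to 8.87 FPKM before and 6.06 FPKM after light, and went from 8.65 to 1.05 FPKM in pifq. Their part in the result was not tested.

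Further pifq-led lower genes were XTH26, a xyloglucan-modifying enzyme that went from 4.63 to 0.480 FPKM in pifq and from 4.77 to 6.50 FPKM in light, and LSH10, of a family named for light-dependent short hypocotyls, which went from 16.2 to 1.61 FPKM and from 19.1 to 21.7 FPKM. DAA1, a nucleotide-binding ATPase, went from 34.6 to 2.34 FPKM and from 35.5 to 25.2 FPKM. Outside that class, the lipid-transfer protein LTP4 went from 70.9 to 0.181 FPKM in pifq and from 73.0 to 128 FPKM in light, and its neighbour LTP3 from 96.9 to 11.3 FPKM and from 100.2 to 350.1 FPKM. KCS2, which elongates fatty acids for suberin and wax, went from 65.9 to 15.6 FPKM and from 68.4 to 119 FPKM. VSP1 and VSP2, vegetative storage proteins raised by jasmonate, went from 17.3 to 0.971 FPKM and from 4.60 to 0.636 FPKM in pifq and from 17.9 to 29.4 FPKM and from 4.75 to 9.77 FPKM in light. LOX2, a lipoxygenase of jasmonate synthesis, went the other way, from 0.0294 to 8.82 FPKM in pifq and from 0.0302 to 0.162 FPKM in light, from a dark level near 0.

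Some genes of the root endodermis and its barriers were lower in pifq while staying near the dark level in light. CASP1, a protein of the Casparian strip, went from 342 to 128 FPKM in pifq and from 376 to 396 FPKM in light. MYB36, a factor needed for the Casparian strip, went from 22.2 to 8.06 FPKM in pifq and from 22.9 to 22.7 FPKM in light. Of 18 members of the root list 0 were higher and 6 lower in pifq, 3 were higher and 1 lower in light, and 10 had a difference of at least 1 (median 1.26). The 6 root markers summed to 691 FPKM before and 774 FPKM after light, and went from 648 to 313 FPKM in pifq. Within them RHD6, a root hair factor, went from 7.55 to 7.99 FPKM in pifq, and PHT1;1, a phosphate transporter with 49.5% of its stretches elsewhere, from 33.7 to 47.1 FPKM. In whole seedlings fewer cells of a type and less RNA per cell cannot be told apart. GPAT5 and RWP1, which make suberin, rose in light: GPAT5 went from 7.01 to 42.0 FPKM and from 6.82 to 2.23 FPKM, and RWP1 from 33.3 to 181 FPKM and from 32.4 to 19.9 FPKM.

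BBX14, TCP4, CYCD3;1 and MCM6 were among the pifq-led higher genes. BBX14 (AT1G68520), a B-box factor, went from 16.8 to 188 FPKM in pifq and from 17.3 to 20.8 FPKM in light. TCP4, a factor of leaf growth, went from 4.46 to 26.5 FPKM and from 4.59 to 5.31 FPKM. Its relative TCP3, outside the class, went from 5.28 to 43.7 FPKM in pifq and from 5.44 to 10.05 FPKM in light. Of 20 members of the leaf initiation and growth-regulating factor list 11 were higher in pifq and 4 in light, and 8 had a difference of at most -1 (median -0.85). The D-type cyclin CYCD3;1 went from 8.29 to 22.4 FPKM in pifq and from 8.53 to 7.40 FPKM in light, and MCM6, of the replicative helicase, from 1.69 to 4.83 FPKM and from 1.74 to 1.96 FPKM. Of 26 cell cycle members 9 were higher in pifq and 1 in light, and 22 had a lower fold in light (median -0.74).

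All 15 member genes of the stomatal lineage had a lower fold in light than in pifq, with 6 higher and 1 lower in light, 9 higher in pifq and a median of -1.19. SPCH, the factor that starts the lineage, went from 0.379 to 10.9 FPKM in pifq and from 0.390 to 4.38 FPKM in light. SCRM2, its partner, went from 3.28 to 27.2 FPKM and from 3.39 to 10.9 FPKM, and BASL, which sets the polarity of the division, from 0.181 to 3.91 FPKM and from 0.187 to 1.14 FPKM. SDD1, a protease that limits stomatal number, went from 0.0552 to 4.78 FPKM in pifq and from 0.0499 to 0.0579 FPKM in light, so it was pifq-led. Its light fold rests on values near 0. MUTE went from 0.144 to 1.35 FPKM in pifq and from 0.148 to 0.605 FPKM in light. The 15 include members, SDD1 and MUTE among them, that reached 1 FPKM in pifq alone. For such members the minimum fixed which fold was lower. Levels of the list are low in the dark, with a median of 3.39 FPKM. Its median difference was -0.72 with 1 FPKM added to all values and -0.74 with a minimum of 5 FPKM. TMM, a receptor of the lineage, was not a member: it is listed at 0 in both columns of the light table and at 2.33 and 23.8 FPKM in dark wild type and pifq of the other.

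Other pifq-led higher genes were FRO8, a ferric reductase that went from 0.386 to 6.43 FPKM in pifq and from 0.398 to 0.455 FPKM in light, and RLM3, a TIR-type resistance protein that went from 0.954 to 15.3 FPKM and from 0.960 to 1.19 FPKM. PIP2;8, an aquaporin, went from 8.77 to 44.6 FPKM and from 9.03 to 7.41 FPKM. MIPS3, an inositol phosphate synthase, went from 1.26 to 6.10 FPKM and from 1.32 to 0.949 FPKM, and GLP9, a germin-like protein, from 1.07 to 5.69 FPKM and from 1.11 to 0.952 FPKM. With 5 FPKM added to all values the differences of MIPS3 and GLP9 were under 1 in size.

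The 70 genes lower in light and higher in pifq started from low levels, with a median of 1.18 FPKM in the dark wild type of the light table. QQS (AT3G30720), a gene found in Arabidopsis alone that affects starch content, went from 0.806 to 0.393 FPKM in light and from 0.780 to 70.7 FPKM in pifq. FRO4, a ferric reductase with 13.1% of its stretches elsewhere, went from 0.706 to 0.221 FPKM and from 0.673 to 18.3 FPKM. CRK40, a receptor-like kinase, went from 1.37 to 0.508 FPKM and from 1.33 to 17.2 FPKM, and CYP71A12, a cytochrome P450 of defence compounds with 17.0% of its stretches elsewhere, from 0.951 to 0.129 FPKM and from 0.887 to 5.11 FPKM. AT3G05730, annotated as defensin-like, went from 12.8 to 6.397 FPKM in light and from 12.4 to 336 FPKM in pifq. DPE1, a plastid enzyme of starch breakdown, went from 5.38 to 2.55 FPKM and from 5.23 to 17.65 FPKM. PORB, LAX1 and LHY, described above, also belong to the class. Low values bear on several of these folds: QQS, FRO4, CRK40 and CYP71A12 were under 1 FPKM in light. The class held 14 genes with 1 FPKM added to all values. The class of genes higher in light and lower in pifq held 119 in that setting.

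**Figure D4:**
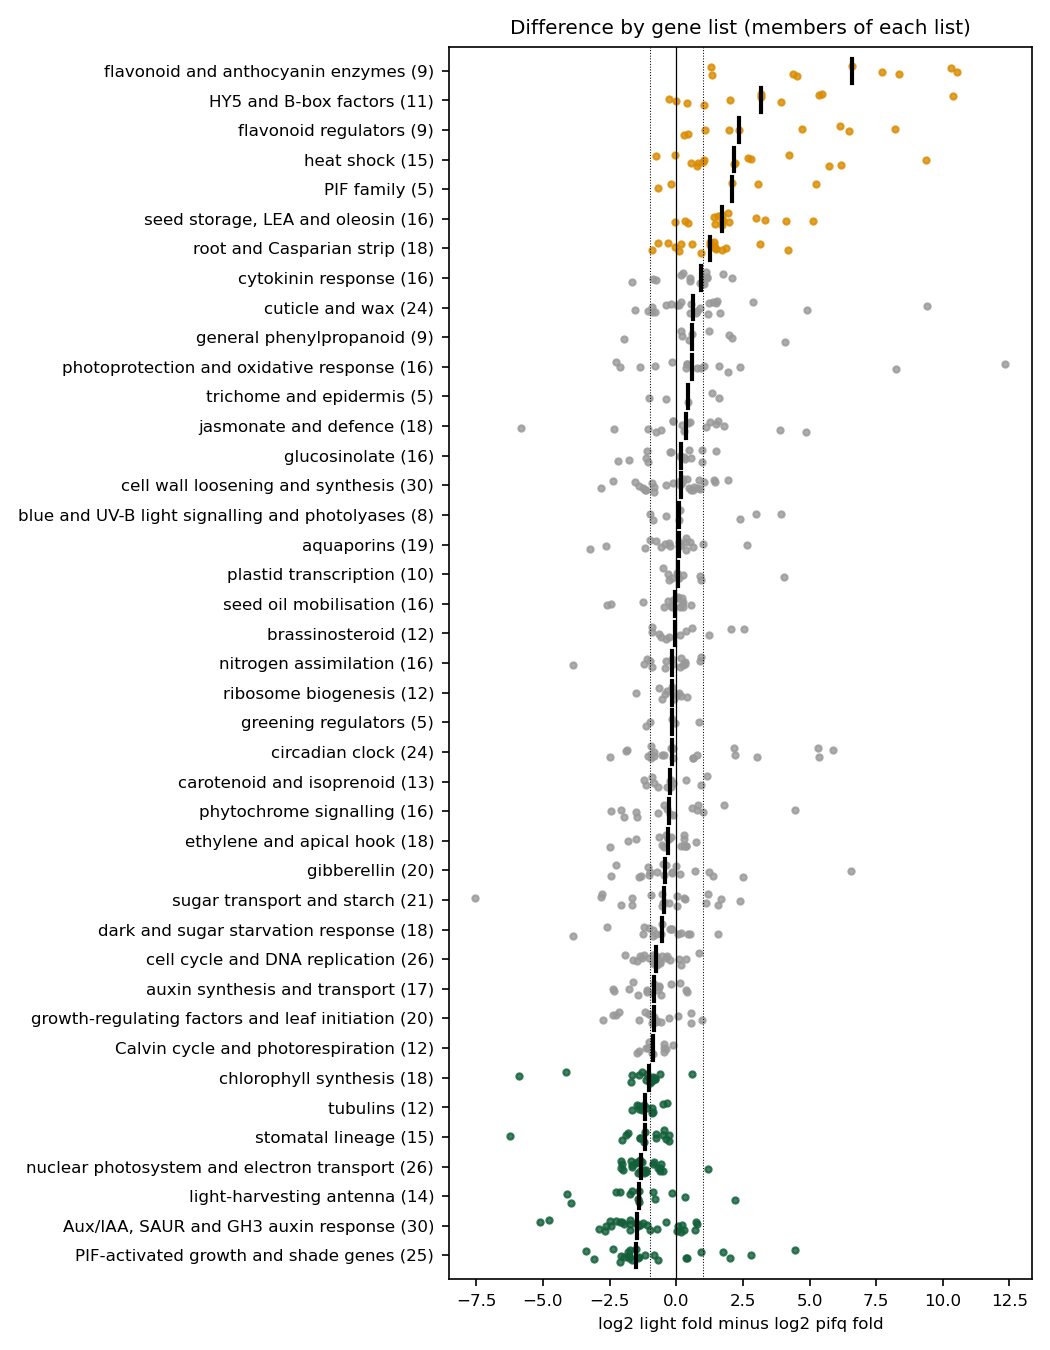
Log2 light fold minus log2 pifq fold for the members of each of 41 gene lists, 1 point per member, with a black bar at the list median and the number of members in brackets. Orange lists have a median of at least 1 and green lists of at most -1; the flavonoid enzymes are highest at 6.58 and the PIF-activated genes lowest at -1.50, with 14 lists past 1 in either direction.

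The 250 bases before the annotated start were read for some of the genes named above, from RefSeq TAIR10.1. They are written 5' to 3' along the gene, with capitals where one of the following motifs matches on either strand. CACGTG is the G-box bound by PIFs and HY5. The motif CACATG is an E-box also bound by PIFs. Other G-box-like letters searched were TACGTG and, counted with it, the run GACGTG. The letters ACGTGGC belong to abscisic acid-responsive elements. Heat shock elements hold GAANNTTC, where N is any base. ACGTGGC and GAANNTTC were added after values had been seen, and ACGTGGC can overlap CACGTG. ELIP1, BBX30 and HSP17.4 rose in light and fell in pifq, TT4 opens the flavonoid pathway, XERO1 stands for the pifq-led lower genes and PORA for the light-led lower genes.
ELIP1: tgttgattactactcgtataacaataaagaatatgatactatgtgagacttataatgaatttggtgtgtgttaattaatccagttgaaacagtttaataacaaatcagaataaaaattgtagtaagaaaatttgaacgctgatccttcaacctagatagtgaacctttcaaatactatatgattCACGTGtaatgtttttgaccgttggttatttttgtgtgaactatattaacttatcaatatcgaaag
BBX30: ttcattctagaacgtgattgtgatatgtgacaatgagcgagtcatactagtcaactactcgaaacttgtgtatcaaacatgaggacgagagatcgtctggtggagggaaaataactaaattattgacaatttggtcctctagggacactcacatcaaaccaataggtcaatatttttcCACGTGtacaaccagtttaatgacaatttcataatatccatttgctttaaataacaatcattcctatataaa
HSP17.4: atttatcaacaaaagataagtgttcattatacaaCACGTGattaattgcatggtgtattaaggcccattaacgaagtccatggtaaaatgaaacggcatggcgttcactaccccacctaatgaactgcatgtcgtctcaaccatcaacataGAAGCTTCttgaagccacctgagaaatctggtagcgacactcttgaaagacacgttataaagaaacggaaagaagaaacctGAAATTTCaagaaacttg
TT4: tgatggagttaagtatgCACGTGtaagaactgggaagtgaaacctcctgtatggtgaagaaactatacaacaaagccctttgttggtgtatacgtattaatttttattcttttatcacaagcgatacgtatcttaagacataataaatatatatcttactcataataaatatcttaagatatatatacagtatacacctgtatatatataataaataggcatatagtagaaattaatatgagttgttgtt
XERO1: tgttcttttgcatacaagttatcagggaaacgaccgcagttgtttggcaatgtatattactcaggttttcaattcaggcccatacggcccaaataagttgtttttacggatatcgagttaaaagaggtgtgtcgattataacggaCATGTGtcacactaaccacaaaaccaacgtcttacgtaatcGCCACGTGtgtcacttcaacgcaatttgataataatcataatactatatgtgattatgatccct
PORA: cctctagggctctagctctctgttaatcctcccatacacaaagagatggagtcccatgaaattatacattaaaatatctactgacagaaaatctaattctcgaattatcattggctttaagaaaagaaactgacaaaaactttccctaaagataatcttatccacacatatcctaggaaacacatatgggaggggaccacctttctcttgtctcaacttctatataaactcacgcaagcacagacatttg

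The stretches lie at chr3:8085670-8085919, minus strand (ELIP1), chr4:8708591-8708840, plus strand (BBX30), chr3:16984868-16985117, minus strand (HSP17.4), chr5:4488226-4488475, plus strand (TT4), chr3:18941675-18941924, plus strand (XERO1) and chr5:21992815-21993064, minus strand (PORA). ELIP1 has a CACGTG that starts 66 bases before the gene, BBX30 one at 72 bases, HSP17.4 one at 216 bases and TT4 one at 233 bases. HSP17.4 also has GAANNTTC at 99 and 18 bases. XERO1 has CACATG at 105 bases and a CACGTG at 62 bases that overlaps ACGTGGC. PORA has none of the motifs marked by capitals in this window. The same window was read for BBX14 and LTP4, which have none of these motifs either and are not printed. Among 215 protein-coding genes higher in light and lower in pifq, 14.9% had CACGTG in these 250 bases, against 7.55% of 14127 protein-coding members and 6.49% of all 27443 protein-coding genes. The share was 10.5% for pifq-led lower, 10.3% for light-led lower, 8.60% for light-led higher, 6.23% for pifq-led higher genes and 8.06% for those lower in light and higher in pifq. CACATG stood in 17.7% of light-led lower genes and 11.1% of all protein-coding genes. It stood in 8.06% to 14.3% of the other classes. TACGTG or GACGTG stood in 12.0% of all protein-coding genes and 12.7% of members. Its share was 21.9% for genes higher in light and lower in pifq and 19.4% for the reverse, and it stood in 92 of 505 pifq-led lower and 49 of 279 light-led higher genes, 12.3% of light-led lower and 11.7% of pifq-led higher genes. ACGTGGC stood in 3.37% of all protein-coding genes and 3.93% of members. The share was 7.89% for light-led higher, 6.14% for pifq-led lower, 5.58% for genes higher in light and lower in pifq, 4.84% for the reverse, 4.34% for pifq-led higher and 2.67% for light-led lower genes. GAANNTTC stood in 9.55% of all and in 6.45% to 13.5% of the 6 classes, with the highest share in genes higher in light and lower in pifq. The motifs GATAAG and AAATATCT are not marked in the sequences. GATAAG stood in 9.68% to 13.7% of the 6 classes and 12.3% of all, and AAATATCT, the evening element, in 3.25% to 9.68% and 4.79%. A match is a run of letters and no evidence of binding.

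Some lists had medians near 0, with members on both sides or few members past 1. Brassinosteroid genes had a median difference of -0.05, nitrogen assimilation -0.14, ribosome biogenesis -0.15, carotenoid and isoprenoid synthesis -0.22, cell wall 0.16 and aquaporins 0.09. In the cell wall list 4 of 30 members had a difference of at least 1 and 7 of at most -1, and in the aquaporin list 2 and 3 of 19, with a range from -3.23 to 2.67. The brassinosteroid list had 3 of 12 at 1 or more and 0 at -1 or less, nitrogen assimilation 0 and 3 of 16, ribosome biogenesis 0 and 1 of 12, and the carotenoid list 1 and 2 of 13. RPT2, a phototropin partner in phototropism, went from 18.6 to 251 FPKM in light and from 18.1 to 189 FPKM in pifq. BAS1, which inactivates brassinosteroids, went from 17.5 to 5.13 FPKM and from 16.98 to 9.43 FPKM, and BR6OX2, which completes their synthesis, from 32.7 to 73.1 FPKM and from 31.7 to 12.1 FPKM. Members past 1 were also found in the others: in nitrogen assimilation GS2, plastid glutamine synthetase, went from 100.2 to 273 FPKM in light and from 97.4 to 607 FPKM in pifq, and in the carotenoid list ABA1, zeaxanthin epoxidase, went from 22.6 to 53.6 FPKM and from 20.4 to 21.6 FPKM.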

How the data were processed

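RNA of whole seedlings was sequenced on an Illumina instrument in 4 groups of 3 libraries each, per the labels. The submitters' processing notes name TopHat, Cufflinks and the build TAIR10, and their versions are not given in the sources used here. There are 3 tables, in which the authors deposited 1 FPKM value per gene and group. Each table holds 2 groups, and the values of the 3 libraries of a group are not separate in them. The unit is read as FPKM from the values and tools.

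From the deposited FPKM the log2 folds and their difference were computed with Python 3.11.15, pandas 2.3.3 and numpy 2.4.6. The pifq table was multiplied by 1.03 to bring its dark wild type to the median of the other for the comparison of dark values. No pseudocount was added. Calls are by size, since no test can be run on 1 value per group, and the limma fits planned for values per library were not run. The calculation was tested on simulated data. 41 gene lists held 935 symbols, of which 910 matched RefSeq, and 644 of the 892 genes so found were members. The other list genes were left out because 133 were not present once in both tables, 43 stayed under 1 FPKM, 42 had dark values over 1.5-fold apart and 30 were at 0. Columns of per-sample values not used numbered 0.

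Genes were named by a rule: the targeted genes, HY5 and TT4, the 6 largest differences among genes with a symbol in each led class (4 in each opposite class), the 6 largest each way over all members, and up to 3 past 1 in size per list, in each case among genes with at least 5 FPKM in light or pifq. Some genes that the rule chose in the lists are not described. Other genes are named to show exceptions or further members and were chosen after their values were seen. Members and lists were chosen with earlier results of these data known. Alternatives changed the pseudocount, the minimum, the tolerance between tables, the limit in the other condition, the control value and the genes left out.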

Additional observations from a re-analysis of the deposited data

How the results depend on the processing

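Of 76 counts recomputed, 54 stayed within 1.5 times the reported count and 22 did not. With 1 FPKM added, 119 genes were higher in light and lower in pifq, 14 were lower in light and higher in pifq, 478 had a difference of at least 2 and 185 of at most -2. With 5 FPKM added, there were 116 light-led lower, 127 pifq-led higher and 251 pifq-led lower genes, 53 and 5 in the opposite classes, and 269 and 73 past 2 and -2. With no minimum there were 531 light-led lower and 584 pifq-led higher genes, 262 lower in light and higher in pifq, and 1068 at -2 or less. With a minimum of 5 FPKM there were 241 pifq-led higher genes, 40 lower in light and higher in pifq, and 274 at -2 or less. Allowing up to 2-fold in the other condition gave 466 light-led higher, 520 light-led lower and 830 pifq-led lower genes. Without genes that overlap another, a setting chosen after seeing the data, there were 181 light-led higher genes. Each count changes with the rule by its construction. No difference of a named gene and no list median of at least 1 in size changed sign under the settings run. Of these, 26 values of named genes and 19 of list medians dropped under 1 in size. Changes of sign among smaller values were not counted. No paired analysis was possible because each table holds 1 value per group, and leaving out replicates was not run for the same reason. The depth of the libraries is unknown, so how far low values can be trusted cannot be stated.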

Other observations

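Further lists also held genes with a difference past 1 in either direction, as did the members at large. Over all members 13.9% had a difference of at least 1 and 12.5% of at most -1. Whether the list counts below depart from these shares was not tested. In the cytokinin list 7 of 16 members had a difference of at least 1 and 1 of at most -1, with a median of 0.92. ARR6, a response regulator raised by cytokinin, went from 24.6 to 48.9 FPKM in light and from 24.5 to 14.4 FPKM in pifq, and ARR9 from 37.1 to 58.4 FPKM and from 35.9 to 27.0 FPKM. LOG7, which activates cytokinin, went from 26.9 to 31.1 FPKM and from 26.1 to 14.1 FPKM. In the phytochrome list 3 of 16 members had a difference of at least 1 and 5 of at most -1. PKS4 and PKS2, substrates of phytochrome kinase activity that act in phototropism, went from 10.9 to 3.56 FPKM and from 19.9 to 7.68 FPKM in light, against from 12.6 to 22.4 FPKM and from 19.3 to 31.04 FPKM in pifq. In the ethylene and apical hook list 0 of 18 members had a difference of at least 1 and 3 of at most -1; EFE, which makes ethylene, went from 99.8 to 66.7 FPKM in light and from 97.1 to 229.9 FPKM in pifq.

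In the glucosinolate list 1 of 16 members had a difference of at least 1 and 5 of at most -1. TGG1, a myrosinase that breaks down glucosinolates, went from 129 to 103 FPKM in light and from 125 to 341 FPKM in pifq, and TGG2 from 13.9 to 8.40 FPKM and from 13.5 to 18.1 FPKM. MYB34, an activator of indole glucosinolate synthesis, moved the other way, from 27.5 to 42.8 FPKM and from 26.6 to 14.9 FPKM. In the epidermis list, with 2 of 5 members at 1 or more and 1 at -1 or less, ATML1, which specifies the shoot epidermis, was 25.04 FPKM in dark wild type, 25.01 FPKM after light and 49.6 FPKM in pifq. From lists with medians near 0, nitrate reductase NIA2 went from 73.9 to 169.8 FPKM in light and from 71.9 to 355 FPKM in pifq. ROT3, a brassinosteroid synthesis enzyme, went from 46.9 to 68.8 FPKM and from 45.5 to 16.1 FPKM. The entries ARR6, ARR9 and ROT3 overlap another annotated gene.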
